A study of Mus musculus with 16 samples.

Results

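Leptin and 6 other adipokine genes, Lep, Adipoq, Retn, Cfd, Rbp4, Nampt and Apln, were followed in gonadal and subcutaneous fat of mice that received a gene for lipocalin-2 or for green fluorescent protein. They were chosen by name as genes of proteins that fat tissue secretes. All 7 were found, among 30325 genes measured in gonadal fat and 30946 in subcutaneous fat. The mice were females that lacked Lcn2 (allele Lcn2tm1Aade, strain B6.129P2-Lcn2tm1Aade/AkiJ, C57BL/6J background), so the controls lacked it too. At 8 weeks they were injected into a vein with an AAV8 vector that carried LCN2, or GFP in the controls. In both vectors an adiponectin promoter drives the gene, and a target of microRNA122 is there to break the transcript down in liver. All mice then ate a HF/HS diet until 16 weeks, when RNA of both depots was sequenced, with 4 LCN2 and 4 GFP samples per depot and 16 in all. How much of Adipoq the vector promoter holds is not given in the sources used here, nor whether equal replicate numbers in the 2 depots mean 1 mouse. The labels do not say that the 4 samples of a group came from separate mice, so the p-values rest on a spread that may be partly technical.

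Adipokines are signalling proteins released by fat tissue. Leptin, the product of Lep, is made almost wholly by fat cells, rises with fat mass and acts on the hypothalamus to limit food intake, while adiponectin, the product of Adipoq, is a fat cell hormone that supports insulin action in liver and muscle. Resistin (Retn) is a fat cell hormone in mice that opposes insulin, adipsin (Cfd) is the protease that starts the alternative complement pathway by cutting factor B, and Rbp4 is the plasma carrier of retinol. Nampt, the rate-limiting enzyme of the NAD salvage pathway, is also secreted, and apelin (Apln) is a peptide that fat cells and endothelial cells make and that acts through the receptor Aplnr.

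Gonadal values are normalized counts, each a read count divided by 1 size factor per sample, from 35173260 to 42890102 reads per sample. Subcutaneous values are rlog, a log2 scale on which low genes are drawn towards their mean, and their depth is unknown. The tables had been normalized separately, so no level was tested between depots. Lcn2 itself had 186, 189, 522 and 481 normalized counts in LCN2 gonadal samples, against 103, 62.1, 70.0 and 89.5 in GFP samples, so Lcn2 reads were present in controls that carry the null allele. In subcutaneous fat its rlog was 8.74, 8.49, 9.45 and 9.82 in LCN2 samples, against 7.76, 8.32, 8.23 and 8.37 in GFP samples. The log2 difference of Lcn2 was 1.93 ± 0.37 (SE) in gonadal and 0.95 ± 0.29 in subcutaneous fat. It did not pass the limma test in either depot (limma adjusted p = 0.108 and 0.308), while DESeq2 gave an adjusted p of 1.28e-05 in gonadal fat. Both depots held fat cell RNA: the 20 fat cell markers, among them Plin1 and Cidec, made up 6.23 to 7.01% of reads in LCN2 and 5.46 to 7.63% in GFP gonadal samples. None of these 20 passed the test in either depot, with 10 of 20 higher in LCN2 gonadal fat (median difference 0.01 on the log2 scale) and 13 of 20 higher in LCN2 subcutaneous fat (median 0.11). Some libraries held RNA of other tissues: skeletal muscle markers reached 0.229% of reads in LCN2 gonadal replicate 4, against at most 0.0185% in any other gonadal library. By their median level, liver genes such as Alb were highest in LCN2 gonadal replicates 1 and 2 and GFP gonadal replicate 1, and lymph node and B cell markers in GFP subcutaneous replicates 1 and 2. By share of reads, liver genes were highest in GFP gonadal replicates 2 and 3 (0.519 and 0.296%), which the fit without liver libraries kept. Mesothelial markers were lower on average in LCN2 gonadal fat for 12 of 12, none of which passed the test (smallest limma adjusted p = 0.0660). An unadjusted limma p under 0.05 was reached by 9 of 12, beside 14.8% of all genes, and 5 of 12 had groups apart, beside 9.11%. Their summed level was 3558 to 8652 normalized counts in LCN2 and 8066 to 16698 in GFP samples. Brown and beige fat markers were higher on average in LCN2 gonadal fat for 9 of 10, with a sum of 3470 to 14972 in LCN2 and 2439 to 5771 in GFP samples. In subcutaneous fat they were lower on average in LCN2 for 9 of 10, with a sum on the linear rlog scale of 3927 to 4878 in LCN2 and 4328 to 12085 in GFP samples. The part of these transcripts in the differences of the adipokines was not tested. Fits that left out the libraries with the highest median of muscle, liver or lymph node markers kept others that held such transcripts. Fewer cells of a type and less RNA per cell cannot be told apart in such bulk samples.

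Upstream sequences of 3 of the genes are shown, and their part in the results was not tested. Lep and Apln were the 2 members with the largest differences, and Adipoq lends its promoter to the vector. Each is the 250 bases before the RefSeq start of transcription in build GRCm38.p6, written 5′ to 3′ on the strand of the gene. The windows are chr6:29059971-29060220 on the plus strand for Lep, chr16:23146286-23146535 on the plus strand for Adipoq and chrX:48034854-48035103 on the minus strand for Apln. Capitals mark matches to the motifs searched.
Lep: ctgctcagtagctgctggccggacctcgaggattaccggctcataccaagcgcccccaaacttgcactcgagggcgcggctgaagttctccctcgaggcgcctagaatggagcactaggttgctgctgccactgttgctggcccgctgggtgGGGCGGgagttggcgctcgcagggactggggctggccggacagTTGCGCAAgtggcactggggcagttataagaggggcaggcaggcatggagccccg
Adipoq: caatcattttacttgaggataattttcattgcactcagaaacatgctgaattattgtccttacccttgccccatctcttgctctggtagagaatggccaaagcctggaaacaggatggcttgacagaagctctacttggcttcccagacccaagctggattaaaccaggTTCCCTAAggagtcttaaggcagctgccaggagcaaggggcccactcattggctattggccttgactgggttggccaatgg
Apln: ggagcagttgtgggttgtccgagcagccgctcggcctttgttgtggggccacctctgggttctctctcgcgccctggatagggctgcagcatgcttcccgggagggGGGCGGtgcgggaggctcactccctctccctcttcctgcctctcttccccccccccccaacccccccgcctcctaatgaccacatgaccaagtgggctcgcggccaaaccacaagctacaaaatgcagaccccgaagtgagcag

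The motifs searched, on both strands, were the box TATAAA upstream of many start sites, the C/EBP element TTNCNNAA, the nuclear receptor half-site AGGTCA, the hypoxia response core ACGTG and the Sp1 box GGGCGG. Lep held TTGCGCAA from 55 to 48 bases before the start, a sequence that reads the same on both strands and so matches the C/EBP motif on each, and GGGCGG from 98 to 93 bases before the start. Adipoq held 1 C/EBP match, TTCCCTAA, from 81 to 74 bases before the start, and Apln 1 match to GGGCGG, from 144 to 139 bases before it. Of all 32851 windows of this length, 36.8% hold the C/EBP element, 32.7% the Sp1 box, 16.6% the hypoxia core, 14.0% the nuclear receptor half-site and 12.4% the TATAAA box, so each of these matches is common. The Lep and Apln windows were rich in G and C, at 65.6 and 65.2% with 16 and 12 CpG pairs, while Adipoq had 48.8% and no CpG pair, beside a median of 52.4% and 6 CpG pairs over all windows. Of the 7 genes all matched a window, and Rbp4 has 2.

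Lep was the member with the largest difference in both depots. In gonadal fat Lep (ENSMUSG00000059201, chr6:29060220-29073877, plus strand, build GRCm38) had 49373, 74936, 65884 and 88609 normalized counts in LCN2 samples, against 32890, 21628, 24055 and 34236 in GFP samples. Every LCN2 sample lay above every GFP sample, and LCN2 replicate 1 was nearest to the controls. The means were 69700 ± 16459 in LCN2 and 28202 ± 6293 in GFP fat (SD, n = 4 each), a log2 difference of 1.30 ± 0.23 (SE), or 2.46-fold with a 95% interval of 1.72 to 3.52. With limma and adjustment over all 19536 genes tested the adjusted p was 0.0964, so Lep did not pass the threshold of 0.05, at place 60 of all genes by p. An exact two-sided permutation test of Lep alone gave p = 0.0286, unadjusted and the smallest that 4 against 4 allows, as must follow from groups that do not overlap. Lep was chosen with earlier results known, so this p is no support beyond the values themselves.

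The rlog of Lep in subcutaneous fat was 15.14, 15.75, 15.88 and 15.36 in LCN2 samples, against 14.20, 14.17, 14.71 and 14.66 in GFP samples. Again the groups did not overlap, with LCN2 replicate 1 lowest in its group. The means were 15.53 ± 0.34 in LCN2 and 14.43 ± 0.29 in GFP fat, a difference of 1.10 ± 0.20 (SE), or 2.14-fold on the rlog scale with a 95% interval of 1.56 to 2.94. Its limma adjusted p was 0.308, at place 16 of all genes by p and no higher than that of any other gene in the table. The exact permutation p was 0.0286 here too, for the same reason. Of 19109 genes tested in both depots, 0.843% had groups apart and higher in LCN2 in both, and Lep was the 1 member among them.

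**Figure D1:**
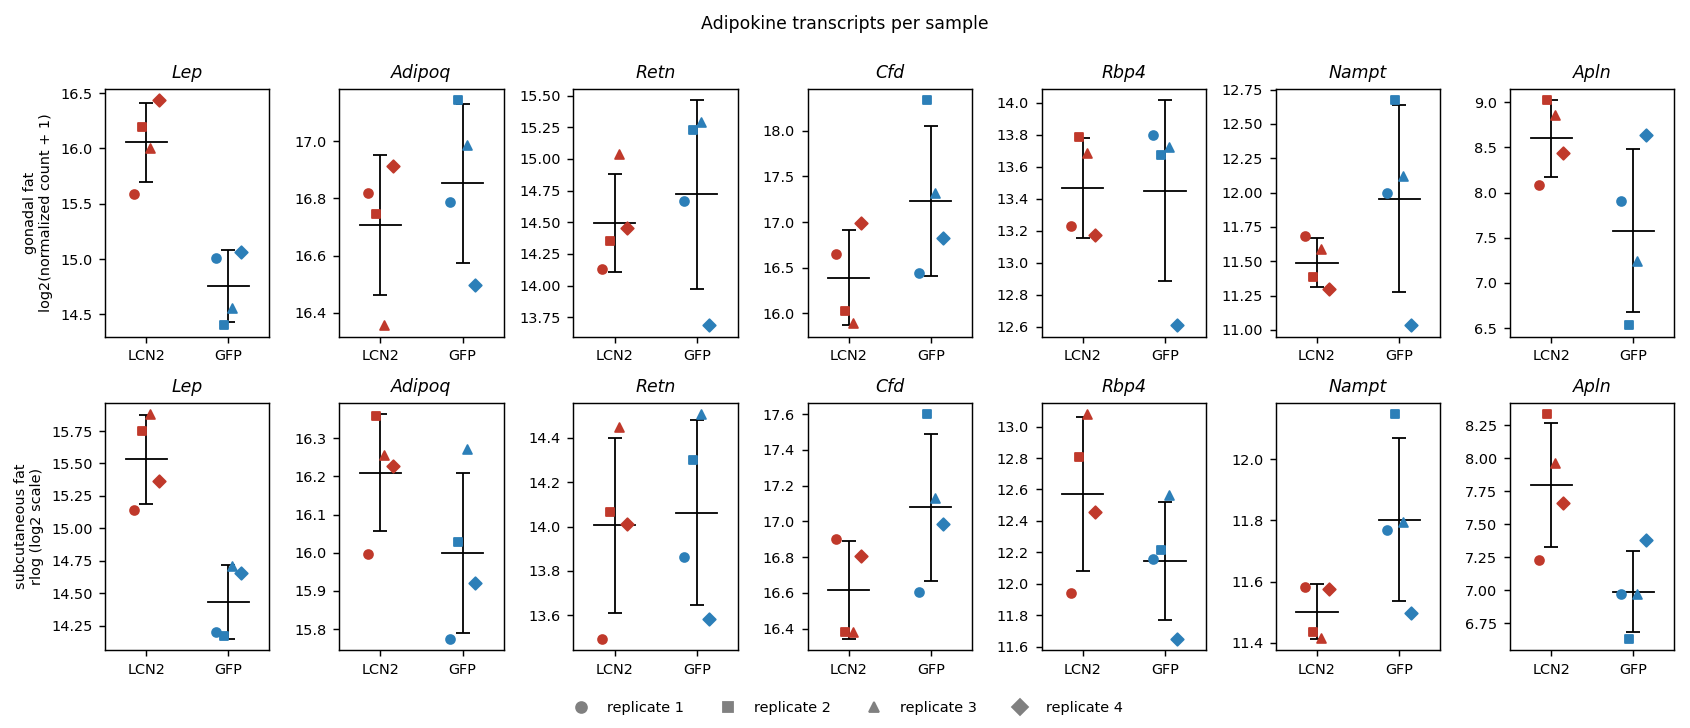
Level of the 7 adipokine genes in each sample, LCN2 left (red) and GFP right (blue); the upper row is gonadal fat in log2(normalized count + 1) and the lower row subcutaneous fat in rlog, each panel with its own axis that does not start at 0. Bars are the mean and SD of 4 samples and the symbol gives the replicate number; the groups are apart for Lep alone, in both depots.

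No member passed the limma test in either depot. In gonadal fat that was 0 of 7, where 0.102% of all genes passed, and in subcutaneous fat 0 of 7, where 0.0% passed. An unadjusted p under 0.05 was reached by 2 of 7 members in gonadal fat (Lep and Apln), beside 14.8% of all genes, and by 3 of 7 in subcutaneous fat (Lep, Apln and Nampt), beside 14.0%. Groups did not overlap for 1 of 7 members in each depot, where 9.11% of gonadal and 7.08% of subcutaneous genes had groups apart. Differences went both ways: 3 members were higher and 4 lower in LCN2 gonadal fat (median -0.15, beside 0.01 for all genes), and 4 were higher and 3 lower in LCN2 subcutaneous fat (median 0.21, beside 0.00).

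The gonadal call for Lep depended on the test. DESeq2 on the reads recovered from the deposited values gave a log2 difference of 1.31 and an adjusted p of 1.50e-06, in a table where 3.84% of genes passed. On the same reads edgeR gave 1.30 and an adjusted p of 0.117. With limma it was 0.0491 when the fat cell marker score was a covariate (0.64% of genes passed) and 0.0441 with sample quality weights (0.363% passed). Over all alternatives the adjusted p of Lep was between 1.50e-06 and 0.411. Of 23 alternatives, the unadjusted permutation test among them, 19 left Lep short of the threshold. Without the 2 libraries with the highest median of muscle markers (LCN2 replicate 4 and GFP replicate 2) the difference was 1.06 ± 0.24 (limma adjusted p = 0.407). These 2 also held the highest LCN2 and the lowest GFP value of Lep, so leaving them out must lower the difference. By share of reads, LCN2 replicate 1 (0.0185%) held more muscle RNA than GFP replicate 2 (0.0109%) and was kept. Without the 3 libraries with the highest median of liver genes the gonadal difference of Lep was 1.55 ± 0.31 (limma adjusted p = 0.411). That fit left out LCN2 replicates 1 and 2 and GFP replicate 1. Without GFP subcutaneous replicates 1 and 2, the libraries highest in lymph node markers, the subcutaneous difference of Lep was 0.85 ± 0.22 (limma adjusted p = 0.905). LCN2 subcutaneous replicate 4 was kept, with a median of these markers of 8.77, against at most 6.22 in the others kept. The 2 libraries left out also had the lowest GFP values of Lep (14.20 and 14.17), so leaving them out must lower the difference. The adjusted p of each of these fits also rests on fewer samples.

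Adipoq, the gene whose promoter drives both vectors, differed little. In gonadal fat it had 115535, 109809, 83890 and 123527 normalized counts in LCN2 samples, against 113239, 144729, 129721 and 92501 in GFP samples. The groups overlapped, with LCN2 replicate 3 the lowest of all and GFP replicate 2 the highest. The log2 difference was -0.15 ± 0.22, with a 95% interval from -0.65 to 0.36 (limma adjusted p = 0.816). It was between -0.028 (without LCN2 replicate 3) and -0.26 (without GFP replicate 4) when 1 library was left out. In subcutaneous fat its rlog was 16.00, 16.36, 16.26 and 16.23 in LCN2 samples, against 15.77, 16.03, 16.27 and 15.92 in GFP samples. These groups overlapped too, and the difference was 0.21 ± 0.14, with an interval from -0.12 to 0.54 (limma adjusted p = 0.502), or 0.14 without GFP replicate 1. A rise or fall of Adipoq by more than 0.65 in gonadal fat, or by more than 0.54 in subcutaneous fat, lies outside these intervals.

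The level of Lep relative to Adipoq within a sample does not depend on a factor that scales the whole sample. Per transcript of Adipoq, gonadal fat held 0.176, 0.281, 0.323 and 0.295 transcripts of Lep in LCN2 samples, against 0.120, 0.0615, 0.0764 and 0.152 in GFP samples, from values normalized per exonic length (TPM). No GFP sample reached the lowest LCN2 sample, and the means were 0.269 ± 0.064 in LCN2 and 0.102 ± 0.041 in GFP fat (SD). On the log2 scale Lep minus Adipoq averaged -0.65 ± 0.39 in LCN2 and -2.10 ± 0.60 in GFP gonadal fat, a difference of 1.45. In subcutaneous fat it averaged -0.68 ± 0.23 in LCN2 and -1.56 ± 0.24 in GFP fat, a difference of 0.89, with groups apart as well. Set against the median of the 20 fat cell markers in place of Adipoq, Lep averaged 0.12 ± 0.32 in LCN2 and -1.26 ± 0.74 in GFP gonadal fat, and -0.07 ± 0.17 in LCN2 and -1.06 ± 0.17 in GFP subcutaneous fat. Those groups were apart in both depots too, and the other 6 members set against the same markers had overlapping groups in both. The share of all genes with groups apart on this scale was not computed, so this is not read as particular to Lep. As Adipoq and the markers differed little between the vectors, these ratios largely repeat the difference of Lep itself. As these are ratios over genes chosen with results known, no test is given.

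**Figure D2:**
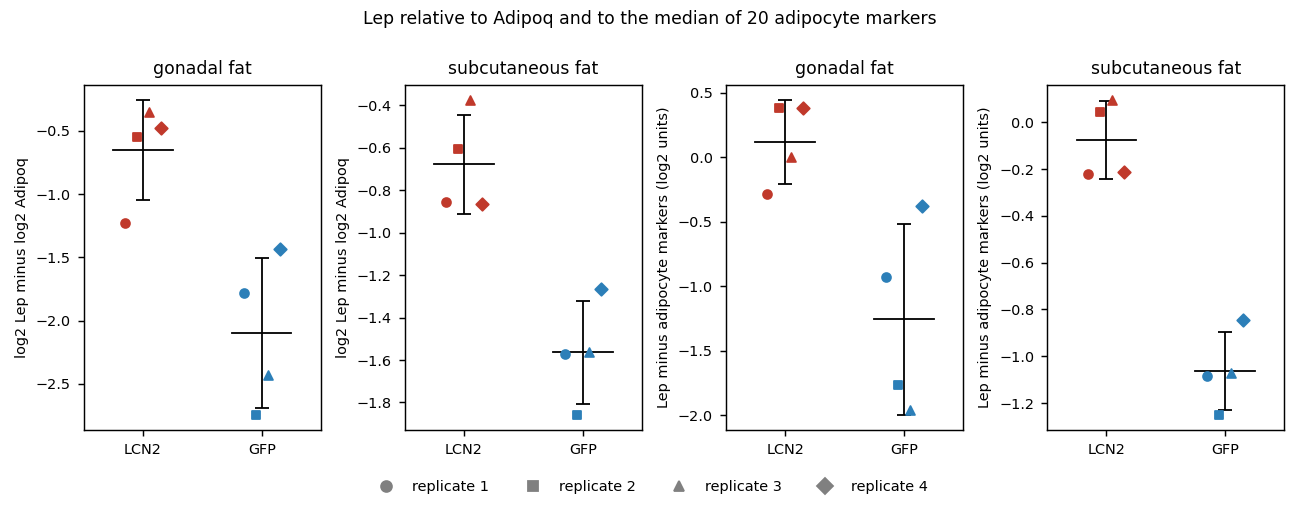
Lep minus Adipoq (left pair of panels) and Lep minus the median of 20 fat cell markers (right pair), in log2 units, for each LCN2 (red, left) and GFP (blue, right) sample; symbols give the replicate number and bars the mean and SD of 4 samples. In each of the 4 panels the lowest LCN2 sample lies above the highest GFP sample.

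Retn had 17892, 20877, 33629 and 22500 normalized counts in LCN2 gonadal samples, against 26060, 38408, 40096 and 13179 in GFP samples. The GFP range enclosed the LCN2 range. Its log2 difference was -0.23 ± 0.36, with an interval from -1.03 to 0.58 (limma adjusted p = 0.823). Leaving out 1 library moved it between -0.57 (without GFP replicate 4) and -0.035 (without GFP replicate 3). In subcutaneous fat the rlog was 13.49, 14.07, 14.45 and 14.01 in LCN2 samples, against 13.86, 14.30, 14.51 and 13.58 in GFP samples. The groups overlapped over most of their range, and the difference was -0.06 ± 0.25, from -0.63 to 0.51 (limma adjusted p = 0.930).

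Cfd, the member with the highest mean level per exonic length, varied widely between GFP gonadal samples. It had 103017, 66601, 60706 and 130109 normalized counts in LCN2 gonadal samples, against 88686, 330594, 163643 and 116179 in GFP samples. GFP replicate 2 held more than any other library, and GFP replicates 1 and 4 fell inside the LCN2 range. The means were 90108 ± 32577 in LCN2 and 174776 ± 108395 in GFP fat (SD), and the log2 difference was -0.84 ± 0.43, from -1.82 to 0.14 (limma adjusted p = 0.408). Without GFP replicate 2 it was -0.47. Subcutaneous Cfd had rlog values of 16.90, 16.38, 16.38 and 16.81 in LCN2 samples, against 16.61, 17.60, 17.13 and 16.98 in GFP samples. GFP replicate 2 was highest here too, and of the GFP samples only replicate 1 was inside the LCN2 range. The difference was -0.46 ± 0.24, from -1.01 to 0.09 (limma adjusted p = 0.410), or -0.29 without GFP replicate 2.

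Rbp4 had 9622, 14142, 13164 and 9228 normalized counts in LCN2 gonadal samples, against 14261, 13053, 13542 and 6245 in GFP samples. GFP replicate 4 was far below the other 3 GFP samples, which lay within the upper part of the LCN2 range or just above it. The log2 difference was 0.02 ± 0.27, from -0.60 to 0.64 (limma adjusted p = 0.986), and without GFP replicate 4 it was -0.26. In subcutaneous fat the rlog was 11.94, 12.81, 13.08 and 12.46 in LCN2 samples, against 12.16, 12.21, 12.56 and 11.65 in GFP samples. LCN2 replicates 2 and 3 lay above every GFP sample and LCN2 replicate 1 below 3 of them. The difference was 0.42 ± 0.27, from -0.18 to 1.03 (limma adjusted p = 0.480), and leaving out 1 library moved it between 0.25 (without LCN2 replicate 3) and 0.63 (without LCN2 replicate 1).

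Nampt was lower on average in LCN2 fat of both depots, with overlapping groups. In gonadal fat it had 3296, 2680, 3078 and 2520 normalized counts in LCN2 samples, against 4090, 6522, 4447 and 2096 in GFP samples. GFP replicates 1, 2 and 3 lay above every LCN2 sample and GFP replicate 4 below every LCN2 sample. The log2 difference was -0.46 ± 0.29, from -1.13 to 0.20 (limma adjusted p = 0.513), and it was -0.77 without GFP replicate 4 (limma adjusted p = 0.0912) and -0.23 without GFP replicate 2. Subcutaneous Nampt had rlog values of 11.58, 11.43, 11.41 and 11.58 in LCN2 samples, against 11.77, 12.15, 11.80 and 11.50 in GFP samples. GFP replicate 4 was inside the LCN2 range and the other 3 GFP samples were above it. The difference was -0.30 ± 0.12, from -0.59 to -0.01, with a limma adjusted p of 0.341. It was -0.19 ± 0.09 when GFP replicate 2 was left out and -0.15 ± 0.10 when GFP replicate 1 was left out too, with intervals that took in 0.

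Apln was the other member that was higher in LCN2 fat of both depots with an interval above 0, though it was the least abundant. In gonadal fat it had 270, 517, 461 and 345 normalized counts in LCN2 samples, against 238, 91.6, 151 and 397 in GFP samples. GFP replicates 1, 2 and 3 lay below every LCN2 sample and GFP replicate 4 above 2 of them. The means were 399 ± 112 in LCN2 and 219 ± 133 in GFP fat (SD), and the log2 difference was 1.02 ± 0.42, from 0.08 to 1.96, or 2.03-fold (limma adjusted p = 0.301). Subcutaneous Apln had rlog values of 7.23, 8.34, 7.97 and 7.66 in LCN2 samples, against 6.97, 6.63, 6.97 and 7.38 in GFP samples. GFP replicate 4, highest in its group again, lay above LCN2 replicate 1. The difference was 0.81 ± 0.24, from 0.25 to 1.37, or 1.75-fold on the rlog scale (limma adjusted p = 0.308). Without GFP replicate 2 the gonadal difference was 0.67 ± 0.34 and without GFP replicate 4 it was 1.37 ± 0.34. The gonadal interval took in 0 under several alternatives, among them scaling by library totals (1.01 ± 0.46) and leaving out GFP replicate 2, and the subcutaneous interval did so without GFP replicates 1 and 2 (0.62 ± 0.29).

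**Figure D3:**
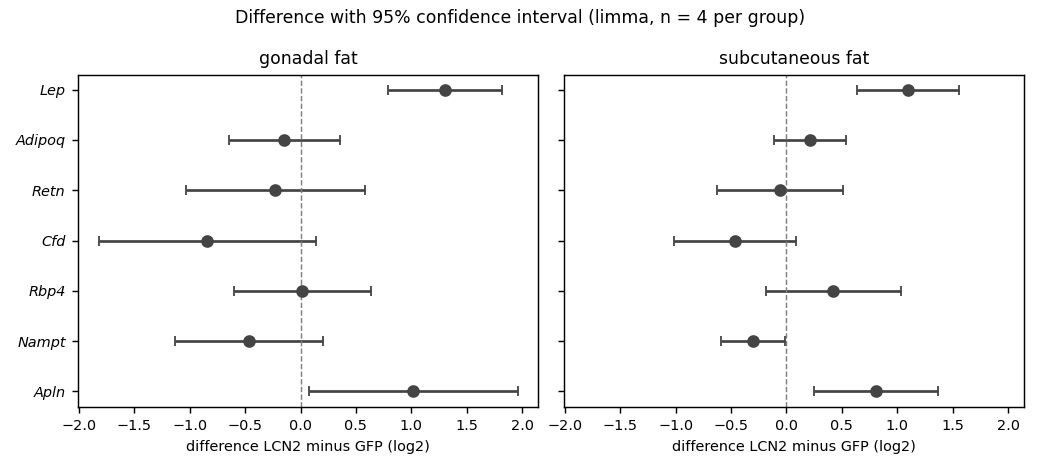
Difference LCN2 minus GFP (log2) of each member with its 95% confidence interval from limma, gonadal fat left and subcutaneous fat right, 4 samples per group. The intervals of Lep and Apln lie above 0 in both depots and that of Nampt lies below 0 in subcutaneous fat; adjusted over all genes, no member passed.

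Endothelial markers stood beside Apln in both depots. All 16 of 16, among them Pecam1, Cdh5 and Kdr, were higher on average in LCN2 fat of each depot, and none passed the test (median difference 0.33 in gonadal and 0.37 in subcutaneous fat, log2). An unadjusted p under 0.05 was reached by 3 of 16 in gonadal fat, beside 14.8% of all genes, and by 7 of 16 in subcutaneous fat, beside 14.0%. None of the 16 was at 0. Their summed level was 64638 to 72012 normalized counts in LCN2 gonadal samples, against 32848 to 68842 in GFP samples. In subcutaneous fat the sum on the linear rlog scale was 45242 to 51873 in LCN2 samples, against 28732 to 49885 in GFP samples. GFP replicate 2, lowest for Apln, was lowest for these markers in both depots, and GFP replicate 4, the GFP sample highest for Apln, was the GFP sample highest for them. Their part in the Apln result was not tested.

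**Figure D4:**
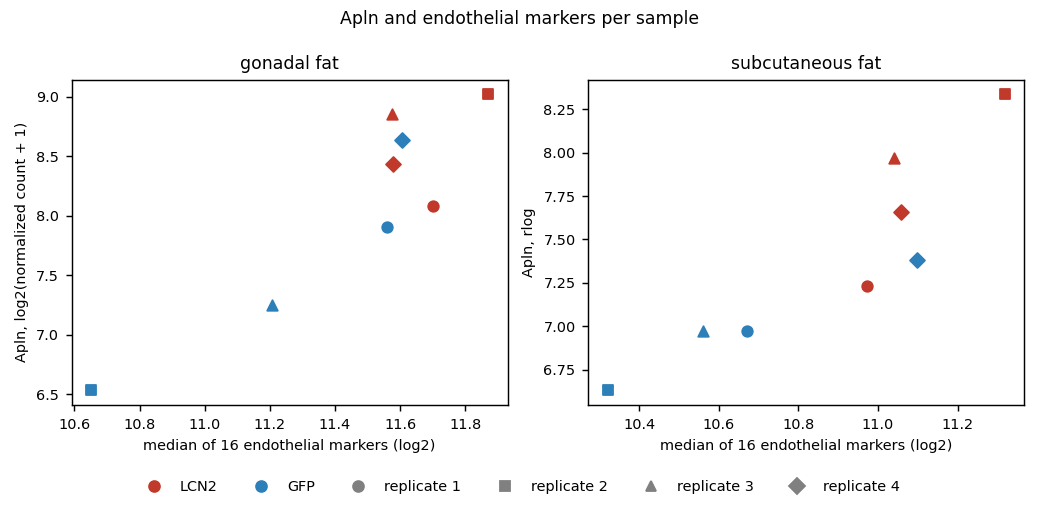
Apln against the median of 16 endothelial markers in each sample (both in log2 units), gonadal fat left and subcutaneous fat right, LCN2 in red and GFP in blue, with the symbol for the replicate number; axes do not start at 0. GFP replicate 2 is lowest on both axes and LCN2 replicate 2 highest on both axes in each depot.

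By level per exonic length, Cfd and Apln stood at the ends of the order. In gonadal fat Cfd had 5394 ± 2131 TPM in LCN2 and 9768 ± 5470 TPM in GFP samples (SD), and Adipoq 4313 ± 847 TPM in LCN2 and 4534 ± 475 TPM in GFP samples, at places 20 and 31 among all genes by mean. Lep had 1149 ± 328 TPM in LCN2 and 451 ± 141 TPM in GFP samples. Retn had 820 ± 216 TPM in LCN2 and 954 ± 346 TPM in GFP samples, and Rbp4 471 ± 103 TPM in LCN2 and 453 ± 117 TPM in GFP samples. Nampt was far lower, with 31.2 ± 2.2 TPM in LCN2 and 43.6 ± 15.6 TPM in GFP samples, and Apln lowest, with 6.95 ± 2.04 TPM in LCN2 and 3.85 ± 2.75 TPM in GFP samples. Lep was thus at place 3 of the 7 in LCN2 gonadal fat, ahead of Retn and Rbp4, and at place 5 in GFP gonadal fat, behind them. Neighbours in this order whose ranges overlapped were Cfd and Adipoq, Lep and Retn, and Retn and Rbp4 in LCN2 samples, and Cfd and Adipoq, Retn and Rbp4, and Rbp4 and Lep in GFP samples.

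The order in subcutaneous fat, from rlog minus log2 of the exonic length in kilobases, had the same ends. In LCN2 samples Cfd (16.73) led Adipoq (15.74), Lep (13.79), Retn (13.35), Rbp4 (12.14), Nampt (9.16) and Apln (6.14). In GFP samples the order was Cfd (17.20), Adipoq (15.53), Retn (13.40), Lep (12.69), Rbp4 (11.72), Nampt (9.46) and Apln (5.33). Lep and Retn were the neighbours whose ranges overlapped in each group, and they changed places between the groups. With the length of the longest transcript in place of all exons, gonadal Lep was 1040 TPM in LCN2 and 410 TPM in GFP samples and Retn 1001 TPM in LCN2 and 1169 TPM in GFP samples, so the order of these neighbours in LCN2 fat held by a small margin.

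Members were high or low in the same replicate numbers of both depots in several cases. In GFP fat the lowest sample had the same number in both depots for 6 of 7 members, beside 36.9% of all genes, and the highest for 4 of 7, beside 38.5%. GFP replicate 2 was highest for Cfd and Nampt and lowest for Lep and Apln in both depots. GFP replicate 4 was lowest for Retn, Rbp4 and Nampt and highest for Apln in both depots. In LCN2 fat the lowest sample had the same number for 4 of 7 members, beside 41.0% of all genes, and the highest for 3 of 7, beside 43.6%. LCN2 replicate 1 was lowest for Lep, Retn and Apln in both depots.

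Across the 16 samples, after the mean of each depot was subtracted, Lep went with Apln (Pearson r = 0.85) and against Nampt (r = -0.70), and with Adipoq hardly at all (r = 0.05). After the mean of each group was subtracted as well, these were 0.74, -0.66 and 0.03, so they describe differences between samples of a group too. Apln went against Nampt (r = -0.88) and Cfd (r = -0.86), and Retn with Rbp4 (r = 0.75). The samples share 1 scaling per table and may share mice, so these values carry no test. Among 14249 named genes tested in both depots, those most like Lep with the depot mean alone subtracted were Itga7 (0.97), Ttc28 (0.96) and Slc2a10 (0.96). That measure keeps the difference between the vectors, so genes picked by it tend to differ as the member does. With the mean of each group subtracted too, r with Lep was 0.89 for Itga7, 0.91 for Ttc28 and 0.89 for Slc2a10. Itga7, an integrin chain that binds laminin, had a log2 difference of 0.80 ± 0.12 in gonadal fat (limma adjusted p = 0.0694) and 0.63 ± 0.19 in subcutaneous fat (0.308). As Itga7 was picked by its likeness to Lep, these differences are no separate support. Most like Apln were Plekha1 (0.97), Clca2 (0.96) and Cd93 (0.96), the last a surface protein of endothelial and myeloid cells. For Adipoq they were Bcas3 (0.94), Tmem43 (0.92) and Trappc11 (0.92), and for Retn Copz1 (0.98) and Katna1 (0.97). For Cfd they were Cbr1 (0.94), Mrpl9 (0.93) and Snw1 (0.93), for Rbp4 Glo1, Ak3 and Msrb2 (0.92 each) and for Nampt Atp6v1d, Lrrc47 and Arih1 (0.95 each).

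Genes around the adipokines were described in 9 lists, and no gene of any list passed the test in either depot. Of 16 receptor genes tested in gonadal fat 12 were higher and 4 lower on average in LCN2 samples (median 0.06), and of 17 in subcutaneous fat 12 were higher and 5 lower (median 0.08). The apelin receptor Aplnr had 2223 ± 539 normalized counts in LCN2 and 940 ± 337 in GFP gonadal fat (SD), a log2 difference of 1.29 ± 0.32 with groups apart (limma adjusted p = 0.158). In subcutaneous fat its rlog was 10.68 ± 0.20 in LCN2 and 9.88 ± 0.57 in GFP samples, a difference of 0.80 ± 0.26 with overlapping groups (limma adjusted p = 0.308). Cmklr1, the receptor of the adipokine chemerin, was higher by 0.47 ± 0.17 in gonadal and 0.72 ± 0.18 in subcutaneous fat, and Tlr4, the lipopolysaccharide receptor, was lower by 0.22 ± 0.08 in gonadal fat. Cdh13, which binds adiponectin on endothelium, differed by 0.45 ± 0.19 in subcutaneous fat. In the list of apelin processing and partners, which includes Aplnr and the peptide-cutting enzymes Mme and Furin, 4 of 4 tested genes were higher in LCN2 gonadal fat (median 0.50) and 3 of 4 in LCN2 subcutaneous fat (median 0.27). Mme differed by 0.66 ± 0.22 in gonadal and 0.35 ± 0.17 in subcutaneous fat, and Furin by 0.26 ± 0.12 in gonadal and 0.19 ± 0.08 in subcutaneous fat.

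Genes that carry the leptin signal went both ways. Of 14 tested, 9 were higher and 5 lower in LCN2 gonadal fat (median 0.03), and 7 were higher and 7 lower in subcutaneous fat (median 0.02). Stat3, the transcription factor that the leptin receptor activates, was higher by 0.22 ± 0.08 in gonadal fat with groups apart (limma adjusted p = 0.250). Ptpn1, a phosphatase that dampens the signal, differed by 0.16 ± 0.08 and the adaptor Grb10 by -0.25 ± 0.13 in gonadal fat. In subcutaneous fat Irs1 differed by 0.26 ± 0.12, Ptpn11 by 0.17 ± 0.09 and Ptpn2 by -0.16 ± 0.08.

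Among known regulators of Lep transcription 6 of 13 were higher in LCN2 gonadal fat (median -0.04) and 8 of 14 in subcutaneous fat (median 0.06). Hif1a, the oxygen-regulated factor, had 3645 ± 319 normalized counts in LCN2 and 2712 ± 182 in GFP gonadal fat, a difference of 0.43 ± 0.09 (limma adjusted p = 0.127). Its rlog in subcutaneous fat was 11.66 ± 0.14 in LCN2 and 11.40 ± 0.04 in GFP samples, a difference of 0.27 ± 0.07 (limma adjusted p = 0.308), and its groups were apart in both depots. Rxra, the partner of nuclear receptors, differed by 0.19 ± 0.11 in gonadal and 0.21 ± 0.06 in subcutaneous fat, Fosl2 by 0.29 ± 0.09 in subcutaneous fat and Sp1 by -0.18 ± 0.07 in gonadal fat.

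Of the genes for adiponectin folding and secretion 8 of 14 were higher in LCN2 gonadal fat (median 0.06) and 11 of 14 in subcutaneous fat (median 0.11). Plod1, a lysyl hydroxylase, was higher by 0.25 ± 0.07 in gonadal and 0.33 ± 0.11 in subcutaneous fat, and Hspa5, the main chaperone of the endoplasmic reticulum, by 0.30 ± 0.11 in gonadal and 0.23 ± 0.07 in subcutaneous fat. Sec23a, a coat protein of export vesicles, differed by 0.24 ± 0.11 in gonadal fat, and Vps13a by -0.29 ± 0.10 in subcutaneous fat.

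**Figure D5:**
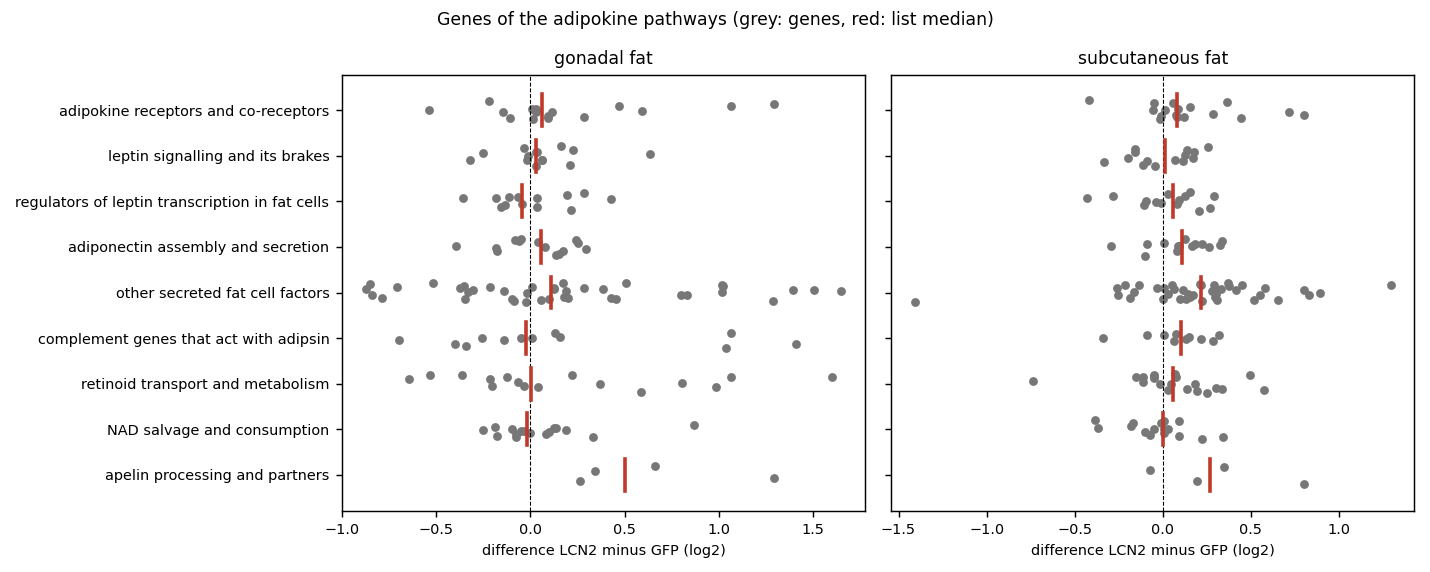
Difference LCN2 minus GFP (log2) of each tested gene (grey) of 9 lists around the adipokines, with the list median (red), gonadal fat left and subcutaneous fat right. The medians lie between -0.04 and 0.50 in gonadal fat and between 0.00 and 0.27 in subcutaneous fat, and no gene shown passed the test.

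Among other secreted factors of fat, 23 of 40 tested were higher in LCN2 gonadal fat (median 0.11), and 33 of 41 in LCN2 subcutaneous fat (median 0.22). An unadjusted p under 0.05 was reached by 6 of 40 in gonadal fat, beside 14.8% of all genes, and by 13 of 41 in subcutaneous fat, beside 14.0%. Ccl2, the chemokine that draws monocytes, had 135 ± 45 normalized counts in LCN2 and 49.2 ± 20.8 in GFP gonadal fat, a difference of 1.50 ± 0.37 with groups apart (limma adjusted p = 0.164). The cytokine Mif was lower by 0.35 ± 0.10 in gonadal fat with groups apart (limma adjusted p = 0.186). Of the C1q/TNF-related relatives of adiponectin, C1qtnf6 differed by 1.02 ± 0.30 in gonadal fat, and C1qtnf1 by 0.55 ± 0.13 and C1qtnf9 by 0.52 ± 0.14 in subcutaneous fat. Sfrp5, an inhibitor of Wnt signals, had an rlog of 11.68 ± 0.38 in LCN2 and 10.39 ± 0.76 in GFP subcutaneous fat, a difference of 1.29 ± 0.36 (limma adjusted p = 0.308).

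The list of complement genes set beside adipsin also holds C1ra and C1s1, proteases of the classical pathway. It was evenly split in gonadal fat, with 6 of 12 higher (median -0.02), and 8 of 10 were higher in subcutaneous fat (median 0.11). C1ra differed by -0.40 ± 0.14 in gonadal fat. C1s1 differed by -0.26 ± 0.15 in gonadal and by 0.32 ± 0.09 in subcutaneous fat, and Masp1 by 0.22 ± 0.07 and Cfb by 0.15 ± 0.08 in subcutaneous fat.

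Retinoid genes, the setting of Rbp4, were higher in LCN2 fat for 8 of 16 in gonadal fat (median 0.00) and 12 of 20 in subcutaneous fat (median 0.06). The retinoic acid receptor Rara had 964 ± 254 normalized counts in LCN2 and 546 ± 110 in GFP gonadal fat, a difference of 0.81 ± 0.20 with groups apart (limma adjusted p = 0.158). Dhrs3, which turns retinal into retinol, differed by 0.37 ± 0.12 in gonadal fat. The carotenoid-splitting enzyme Bco1 differed by 0.98 ± 0.38 in gonadal and 0.25 ± 0.07 in subcutaneous fat. In subcutaneous fat the retinal dehydrogenases Aldh1a2 and Aldh1a1 differed by 0.58 ± 0.13 and 0.49 ± 0.12 (limma adjusted p = 0.308 each). In gonadal fat they went the other way, by -0.37 ± 0.22 and -0.20 ± 0.10.

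NAD genes, the setting of Nampt, were near an even split: 7 of 16 were higher in LCN2 gonadal fat (median -0.02) and 8 of 16 in LCN2 subcutaneous fat (median 0.00). Sirt1, an NAD-consuming deacetylase, differed by -0.17 ± 0.08, Nnt by -0.25 ± 0.15 and Qprt by 0.87 ± 0.51 in gonadal fat. In subcutaneous fat Nmnat2 differed by 0.22 ± 0.09, Qprt by -0.38 ± 0.17 and Nmnat3 by -0.18 ± 0.09.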

How the data were processed

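RNA with an integrity number above 8.2 from 8 gonadal and 8 subcutaneous samples went into stranded mRNA libraries, per the labels' protocols. The submitters' processing notes name HISAT2, DESeq2, GRCm38 and mm10. No version, counter or annotation is given in the sources used here. The gonadal table was deposited as a signal: a count per gene over the size factor of its sample. Dividing each value by the worth of a single read gave whole numbers within 1e-06 for 100% of them. These recovered reads served for TPM and for the alternatives with DESeq2 1.42.0 and edgeR 4.0.16, and edgeR called 7 genes. The subcutaneous table was deposited as rlog, a log2 scale. Symbols matched 99.2% of gene IDs.

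Tests used limma 3.58.1 (R 4.3.3) with a trend on the mean and Benjamini-Hochberg adjustment over every gene tested, at a threshold of 0.05. They covered 19536 gonadal genes, as log2(normalized count + 1), with a mean normalized count of 10 or more, and 20302 subcutaneous genes with a mean rlog of 3 or more. LCN2 minus GFP is the direction throughout, on scales that understate changes of low genes. The fit was tested on simulated data. Among samples of the same depot and vector no pair was alike enough to be 1 library, and LCN2 samples were not compared with GFP samples in this way. Coordinates and exonic lengths come from GENCODE M21 (GRCm38), in which no exon of a member overlaps an exon of another gene, and upstream sequences from RefSeq. All 7 members are named, with the 3 genes of smallest p per list and depot and the 3 genes most like each member, except that a few of these are not reported here. The members and lists were chosen with earlier results of these data known. Alternatives were other scalings, filters, pseudocounts and tests, sample weights, a fat cell covariate, a replicate block and leaving out libraries.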

Additional observations from a re-analysis of the deposited data

Results flagged for a closer look

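Rbp4 in gonadal GFP replicate 4, at 6245 normalized counts, lay far from the other 3 GFP samples, of which the nearest had 13053. That gap is 0.849 of the whole range of the group, above the limit used for 4 samples. Chance marks about 1 in 20 groups in this way, and 28 groups of 4 were looked at for the 7 members.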

How the results depend on the processing

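The 20 gonadal genes past the test became 125 with the fat cell marker score as a covariate, 776 with DESeq2 and 7 with edgeR. They became 11 with a mean of at least 50, 6 without the trend, 71 with sample weights and 6 with scaling by library totals. The count was 0 without the 2 libraries with the highest median of muscle markers (1689 at an unadjusted limma p under 0.05). It was also 0 without the 3 with the highest median of hepatocyte genes (1622). Both of those fits had fewer samples. Leaving out 1 sample at a time gave 1 to 66. Lep was the 1 member past the test with DESeq2 (1.31, adjusted p 1.50e-06), with the covariate (1.27, limma adjusted p 0.0491) and with sample weights (1.36, limma adjusted p 0.0441). The exact permutation test of Lep alone, at 1.30 in gonadal and 1.10 in subcutaneous fat, gave p = 0.0286 in each. Leaving out 1 sample at a time, Lep was between 1.17 and 1.46 in gonadal fat, with limma adjusted p of 0.0538 to 0.265, and between 0.98 and 1.23 in subcutaneous fat. In subcutaneous fat no setting called a gene, and the count at an unadjusted limma p under 0.05 was 2851, and between 919 and 5831 under the alternatives.

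The difference of gonadal Rbp4 (0.02) turned to -0.029 with DESeq2, -0.025 with edgeR and -0.16 with sample weights, and was between -0.26 and 0.13 when 1 sample was left out. Gonadal Retn turned to 0.012 without the hepatocyte libraries, and subcutaneous Retn was between -0.22 and 0.11 when 1 sample was left out. The other members kept their direction in both depots under all alternatives run.

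Within a depot, LCN2 and GFP samples of the same number did not all deviate together (correlations of -0.36 to 0.42), so the replicate block is not taken as a pairing of the 2 groups. With it no gonadal gene passed limma (2636 at an unadjusted p under 0.05), and the Lep adjusted p was 0.191 in gonadal and 0.245 in subcutaneous fat. Depth is unknown for subcutaneous fat, and 4 samples per group limit every interval.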
